A study of Mus musculus with 12 samples.

Results

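The nuclear genes for subunits of oxidative phosphorylation were examined in the mouse mammary fat pad. Members were taken by gene symbol, namely the numbered Nduf genes of complex I, Sdha to Sdhd of complex II, the Uqcr genes of complex III, Cox4 to Cox8 genes of complex IV and the Atp5 genes of ATP synthase. Pseudogene symbols ending in "-ps" were left out, as were Cox7a1 and Cox8b, a pair of complex IV isoforms of muscle and brown fat that are given below for reference only. This gave 87 of the 55487 genes listed, with 40 in complex I, 4 in complex II, 8 in complex III, 17 in complex IV and 18 in ATP synthase. Of the 87, 81 had enough reads to be tested. The other 6 were the second identifier of Atp5o, Ndufa11b, Ndufb4c, Ndufs6b, Cox7b2 and Cox8c. Not every pseudogene was removed by symbol, as Ndufa11b, Ndufb4c, Ndufs6b and Cox6c2 are annotated as processed pseudogenes. Of these, only Cox6c2 was tested.

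RNA-seq libraries came from whole right thoracic mammary fat pads of female C57BL/6 mice, an inbred laboratory strain, at postnatal day 84. Mice had received 5 mg/kg folic acid (6 libraries) or 1 mg/kg folic acid (6 libraries), and all libraries were taken 4 weeks after the supplementation. Both groups are labelled with a folic acid dose and no library is labelled as without it. The labels name no transgene or other treatment. The study asks whether folic acid intake during juvenile and peri-pubertal life is reflected in the mammary transcriptome. Nothing in the labels says whether each library is from its own animal, and p-values therefore measure the spread between these samples, which may be technical.

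Oxidative phosphorylation takes place in the inner mitochondrial membrane. Complexes I and II pass electrons from NADH and succinate to ubiquinone, complex III passes them on to cytochrome c, and complex IV passes them to oxygen; complexes I, III and IV pump protons, and ATP synthase uses the proton gradient to make ATP. Skeletal muscle and brown fat are rich in mitochondria and a thoracic fat pad can hold some of both, whereas white fat cells hold few.

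Depth was 48.2 to 75.3 M (mega) gene-assigned reads per library, of which members took 0.361% to 0.799%. The libraries differed in other tissues and in read composition. Ckm, which encodes muscle creatine kinase, lay between 1079 and 3098 CPM (reads of a gene after scaling all libraries to the same size) at 5 mg/kg and between 562 and 4737 CPM at 1 mg/kg. Ucp1, the uncoupling protein of brown fat, lay between 0.902 and 869 CPM at 5 mg/kg and between 10.1 and 409 CPM at 1 mg/kg. All 8 skeletal muscle markers and all 8 brown fat markers were detected, with mean marker levels of 9.90 to 11.41 and −0.31 to 5.40 log2 CPM at 5 mg/kg, and of 9.11 to 12.01 and 0.98 to 4.08 log2 CPM at 1 mg/kg. The labelled tissue was represented by its luminal markers at 4.20 to 5.85 log2 CPM at 5 mg/kg and 3.64 to 6.42 log2 CPM at 1 mg/kg. Reads that fell outside annotated genes made up 5.58% to 20.8% of tallied reads at 5 mg/kg and 8.34% to 26.6% at 1 mg/kg. Mitochondrial ribosomal RNA took 39.2% to 59.5% of gene reads. Replicates 4 and 5 at 5 mg/kg stood apart with the highest summed member levels of all 12 libraries, and replicate 6 at 1 mg/kg with the lowest, so results that rest on them are given with and without them. The slow muscle list, 5 of 5 genes detected, was at 6.93 and 7.81 log2 CPM in replicates 4 and 5 at 5 mg/kg and at 4.34 in replicate 6 at 1 mg/kg; its range was 1.16 to 7.81 over the 5 mg/kg group and −1.32 to 4.34 over the 1 mg/kg group. The B cell list, also 5 of 5, was at −0.49 and 0.11 log2 CPM in replicates 4 and 5 at 5 mg/kg and at 6.6 in replicate 6 at 1 mg/kg, and ran over −0.85 to 6.24 in the 5 mg/kg group and −1.21 to 6.6 in the 1 mg/kg group. The part of these cell types in the members' levels was not tested.

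Promoters are shown because subunit genes are known to share binding sites for a small set of transcription factors and because the members moved together from library to library. RefSeq promoters on GRCm38.p6 were at hand for 64 of the 86 member symbols, and 5 motifs were searched on both strands of the 250 bases before each gene's start. The motif GCGCATGC, the core of the nuclear respiratory factor 1 site, was in 12.5% of the 64 promoters against 2.56% of all 27025 genes with a promoter. TGACGTCA, the cyclic AMP response element bound by CREB, was in 6.25% of the members' promoters against 1.77% of all. CCGGAAGT, the ETS site as bound by GABP, was in 4.69% against 3.23%. AAGATGGCG, the YY1 site, was in 1.56% against 0.71%, and TCAAGGTCA, the site of oestrogen-related receptors, in 1.56% against 0.422%. In the order given, the members' shares stand for 8, 4, 3, 1 and 1 of the 64 promoters. The 27025 genes were not matched to the members by level or base composition. The nuclear respiratory factor 1 motif nearly equals its own reverse complement and was counted once per promoter where its matches on both strands overlapped; TGACGTCA and TCAAGGTCA share the letters GTCA. At least 1 of the 5 motifs was in 16 of the 64 promoters, or 25%, against 8.17% of all genes. A match describes letters in this window and not a bound site. The 5 examples below were chosen to show a motif in a member that is described further on. Each is the stretch of 120 bases that ends just before the gene's start, 5′ to 3′ on the gene's strand, with the motif in capitals.
Ndufa6, chr15:82354292-82354411, GRCm38.p6, minus strand: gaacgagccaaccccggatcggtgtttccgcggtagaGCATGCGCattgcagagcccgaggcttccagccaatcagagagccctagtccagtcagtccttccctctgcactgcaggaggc
Sdhb, chr4:140961151-140961270, GRCm38.p6, plus strand: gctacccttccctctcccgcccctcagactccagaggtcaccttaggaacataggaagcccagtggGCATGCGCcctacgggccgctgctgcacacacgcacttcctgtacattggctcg
Uqcrfs1, chr13:30545317-30545436, GRCm38.p6, minus strand: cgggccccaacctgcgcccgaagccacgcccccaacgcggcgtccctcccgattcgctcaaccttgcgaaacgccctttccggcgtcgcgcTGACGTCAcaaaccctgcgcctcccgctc
Atp5g2, chr15:102671048-102671167, GRCm38.p6, minus strand: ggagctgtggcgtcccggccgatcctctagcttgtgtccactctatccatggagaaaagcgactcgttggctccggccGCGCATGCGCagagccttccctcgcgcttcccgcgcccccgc
Atp5g3, chr2:73911327-73911446, GRCm38.p6, minus strand: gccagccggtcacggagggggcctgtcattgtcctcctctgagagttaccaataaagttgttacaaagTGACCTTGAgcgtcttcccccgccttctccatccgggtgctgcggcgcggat
Ndufa6, Sdhb and Atp5g2 hold the nuclear respiratory factor 1 motif, Uqcrfs1 holds the CREB motif, and Atp5g3 holds the oestrogen-related receptor motif.

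The 81 tested members varied together across the 12 libraries, whatever their complex. At 5 mg/kg their summed level had a lowest value of 3542, a median of 6189 and a highest value of 12430 CPM; at 1 mg/kg these were 2720, 5394 and 8276 CPM. The 2 ranges overlapped over most of their length. Of the 81 members, 74 were highest in replicate 5 at 5 mg/kg, and 74 were lowest in replicate 6 at 1 mg/kg. The highest library exceeded the lowest by a median of 4.6 times per member, with a range of 1.96 to 7.32 times. The standard deviation (SD) of log2 CPM over the 12 libraries had a median of 0.63 for members and 0.42 for all genes tested. These values include the trimmed mean (TMM) scaling factors, which ran from 0.6 to 1.33 over the libraries. With library size alone, added after seeing the data, the median ratio of the highest to the lowest library was 2.22, with a range of 1.40 to 4.21, and the median SD was 0.34 for members and 0.53 for all genes, so the order of these SDs turned. On that scale 54 members were highest in replicate 4 at 5 mg/kg and 10 in replicate 5, and 72 were lowest in replicate 6 at 1 mg/kg. Once the mean level of the members was taken off in each library, the median SD of members was 0.14, and 63 of the 81 members were below 0.2. Of all genes tested, 1.15% were below 0.2 on this measure. The mean was made from these same members, and taking it off raised the median SD of all genes tested from 0.42 to 0.71. The 1.15% is therefore not a like background for the members. Atp5a1, the catalytic-core alpha subunit of ATP synthase, followed that mean most closely, at an SD of 0.049. In these whole-tissue samples, fewer cells of a type and less RNA per cell cannot be told apart.

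**Figure D1:**
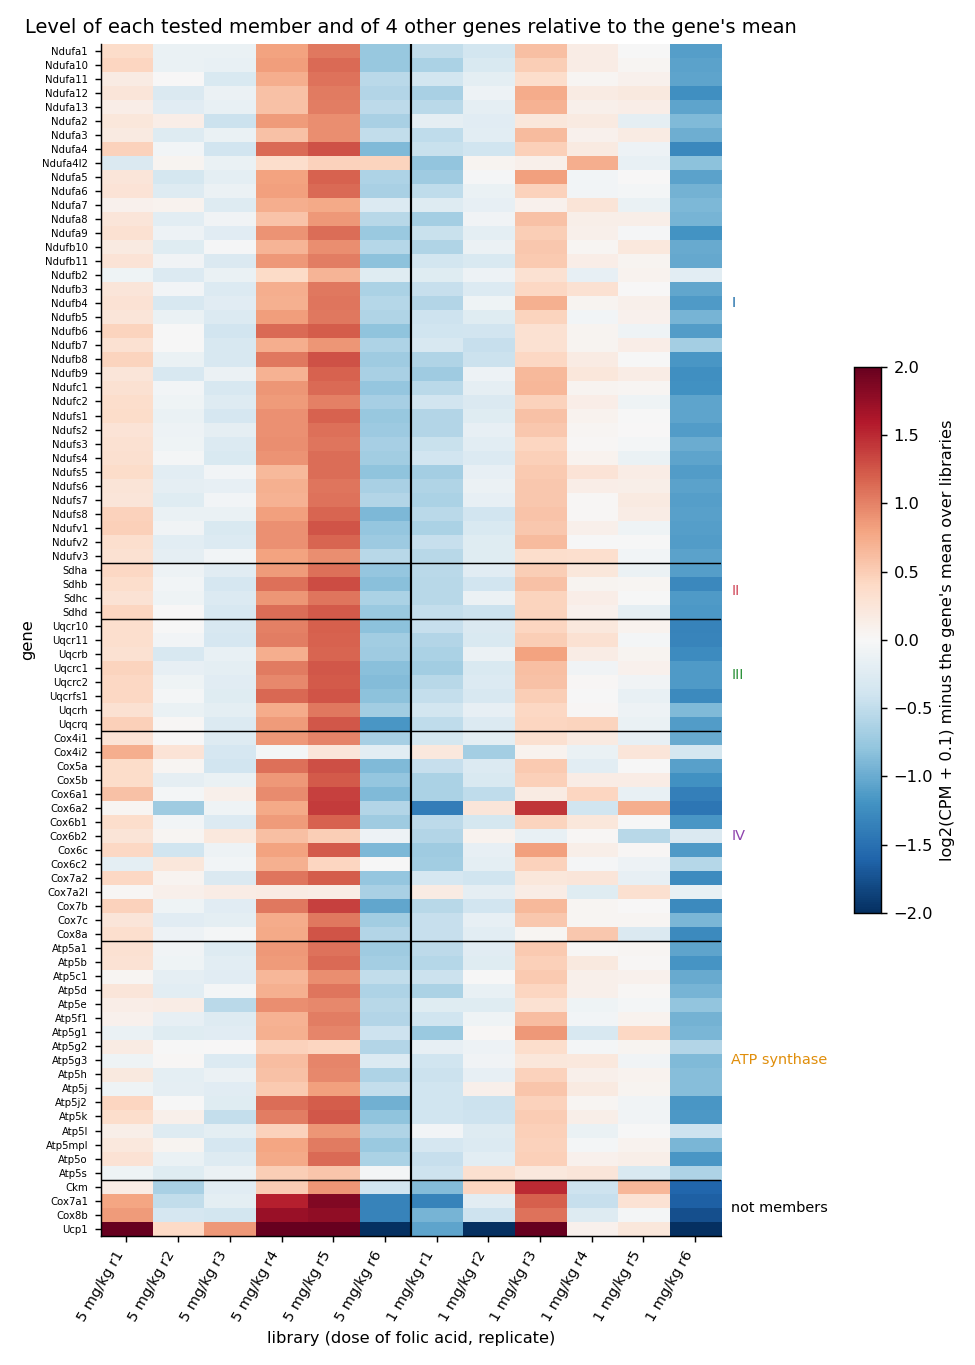
Level of each of the 81 tested members and of the non-members Ckm, Cox7a1, Cox8b and Ucp1 (rows, members grouped by complex) in the 12 libraries (columns, 5 mg/kg left of the black line and 1 mg/kg right of it), as log2(CPM + 0.1) minus the gene's mean over libraries; colours stop at 2 in either direction. Most rows share 1 pattern, with replicates 4 and 5 at 5 mg/kg high and replicate 6 of both doses low, while Cox4i2, Cox6a2, Cox7a2l and Ndufa4l2 stand out from it.

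The members that followed the shared pattern least were mostly second isoforms of complex IV. Relative to the members' mean, the SD was 0.56 for Cox4i2 and Cox6a2, 0.52 for Cox7a2l, 0.51 for Ndufa4l2 and 0.45 for Cox6b2. Cox4i2, Ndufa4l2 and Cox6b2 were also among the members with the fewest reads. Cox6a2 and Cox7a2l were not, with means of 76.4 and 69.8 CPM.

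Levels per kilobase of transcript ranked the subunit genes of each complex by RNA, which does not give the amounts of protein. In complex I the leading members were Ndufa4, at a mean of 200.0 CPM per kilobase, and Ndufa6, an accessory subunit, at 94.8; Ndufa4 carries a complex I name but its product is now known as a subunit of complex IV. In complex II they were the flavoprotein subunit Sdha (109) and the iron-sulphur subunit Sdhb (80.3). In complex III they were the small subunits Uqcrb (249) and Uqcrh (188). In complex IV they were Cox6c (335) and Cox6b1 (228), with Cox4i1 at 225, and in ATP synthase the catalytic beta subunit Atp5b (399) and the stalk subunit Atp5h (221). The order of these levels also depends on transcript length and on copies elsewhere in the genome: 24 of the 87 members shared more than 10% of their 50-base stretches with another annotated gene.

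No member passed the test for folic acid dose. With edgeR's quasi-likelihood test and Benjamini-Hochberg adjustment over 18647 genes, 0 of 81 members had an adjusted p under 0.05, and the smallest adjusted p was 0.943; over all genes 0% were called by that rule. At an unadjusted p under 0.05 there was 1 member, against 1.93% of all genes, and DESeq2 and limma-voom also called 0 members. Of the point estimates, 80 of 81 were positive, meaning higher at 5 mg/kg, against 47.1% of all genes tested. Because the members varied together over the libraries, these signs are not independent and cannot be read as that many separate observations. The same holds for the counts of members given for the slopes below. The median log2 fold change was 0.44 over members and −0.018 over all genes. The 95% interval of a member's log2 fold change had a median half-width of 0.72 before any adjustment over genes. No member had groups that did not overlap, which 0.0429% of all genes did.

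The complexes differed little in these estimates. The median log2 fold change was 0.43 in complex I, 0.54 in complex II, 0.53 in complex III, 0.51 in complex IV and 0.36 in ATP synthase. Summed over complex I, the lowest, median and highest libraries held 1020, 1752 and 3503 CPM at 5 mg/kg, and 775, 1529 and 2362 CPM at 1 mg/kg. Complex II held 289.9, 555 and 1093 CPM at 5 mg/kg, and 223.5, 437 and 695 CPM at 1 mg/kg. In both complexes the highest library was at 5 mg/kg and the lowest at 1 mg/kg, with broad overlap between. Complex III held 368.5, 699 and 1450 CPM at 5 mg/kg, and 285, 582 and 948 CPM at 1 mg/kg. Complex IV held 581, 1070 and 2191 CPM at 5 mg/kg, and 468, 926 and 1427 CPM at 1 mg/kg. ATP synthase held 1283, 2113 and 4194 CPM at 5 mg/kg, and 969.8, 1920 and 2844 CPM at 1 mg/kg. The same libraries set the extremes in each of the 5 complexes.

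**Figure D2:**
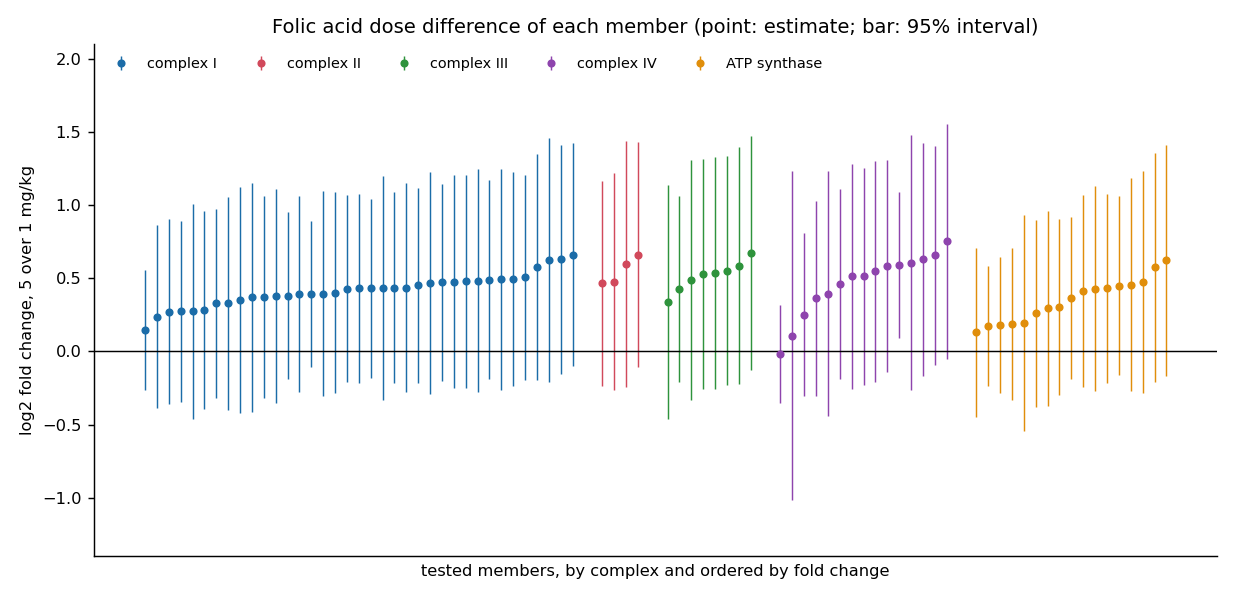
Log2 fold change of 5 mg/kg over 1 mg/kg (vertical axis) for each of the 81 tested members, grouped by complex and ordered within it; points are edgeR estimates and bars 95% intervals from 6 libraries per group. All points but that of Cox7a2l lie above 0, and all intervals but that of Cox6b2 include 0.

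Among individual members, those with the smallest p in their complex were close to each other in size. In complex I, Ndufb6 had a log2 fold change of 0.66 ± 0.35 (SE) and Ndufb8 of 0.63 ± 0.36; both are accessory subunits of the membrane arm, and 39.0% of the exonic bases of Ndufb6 overlap another gene. In complex II, Sdhd, a membrane anchor, was at 0.66 ± 0.35 and Sdhb at 0.60 ± 0.39, with Sdha at 0.48 ± 0.34 and the other anchor Sdhc at 0.46 ± 0.32. In complex III, the Rieske iron-sulphur protein Uqcrfs1 was at 0.67 ± 0.37 and the core protein Uqcrc1 at 0.59 ± 0.37. In ATP synthase, Atp5j2 was at 0.62 ± 0.36 and the epsilon subunit Atp5e at 0.45 ± 0.28, with Atp5b at 0.47 ± 0.35. All of these had an adjusted p of 0.943, and each estimate was less than 2 of its standard errors from 0.

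The largest estimate belonged to Cox6a1, the general isoform of subunit 6A of complex IV. Its lowest, median and highest levels were 34.2, 80.9 and 162 CPM at 5 mg/kg, and 24.4, 50.3 and 84.5 CPM at 1 mg/kg. The groups overlapped, and the log2 fold change was 0.75 ± 0.37 (SE) with an adjusted p of 0.943. Cox6b2, the testis isoform of subunit 6B, was the member with an unadjusted p under 0.05 (0.0234), at 0.420, 0.556 and 0.745 CPM at 5 mg/kg and 0.274, 0.382 and 0.487 CPM at 1 mg/kg. Its levels overlapped too and were under 1 CPM in every library. Its log2 fold change was 0.59 ± 0.23.

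The size of the positive estimates varied with the libraries kept. Leaving out 1 library at a time gave medians of 0.24 to 0.59 over members. Without replicates 4 and 5 at 5 mg/kg, 48 members were positive and 33 negative, with a median of 0.014. Those libraries were picked for their high member levels, so leaving them out lowers the estimate by construction. With the percentage of reads outside genes in the model, an alternative chosen after seeing the data, 67 members were positive and the median was 0.099.

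Member levels went with the muscle transcript Ckm. The slope was estimated in 1 model with Ckm, Ucp1 and dose, and is the log2 change of a gene per doubling of Ckm at equal Ucp1 and dose. By edgeR with Benjamini-Hochberg adjustment, 31 of 81 members had a positive slope with an adjusted p under 0.05 and 0 a negative one, against 5.5% positive and 1.07% negative among all genes tested. At an unadjusted p under 0.05 there were 68 members, against 29.9% of all genes, and 79 members had a positive slope, against 46% of all genes. The median slope was 0.37 over members and −0.030 over all genes. By complex, 17 of 37 members tested passed in complex I, 0 of 4 in complex II, 2 of 8 in complex III, 5 of 15 in complex IV and 7 of 17 in ATP synthase. The medians of the complexes lay close together, at 0.37, 0.37, 0.38, 0.35 and 0.33 in the same order, so the unequal counts are not evidence that the complexes differ; that difference was not tested.

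This count depended on single libraries and on the scaling. It was 3 without replicate 6 at 5 mg/kg, against 2.46% positive among all genes, and 4 without replicate 6 at 1 mg/kg, against 3.7%. Leaving out each of the other libraries gave 11 to 67: it was 11 without replicate 1 at 1 mg/kg, against 3.41% positive among all genes, and 67 without replicate 4 at 1 mg/kg, against 13.3% positive and 13.2% negative. It was 31 within the 5 mg/kg libraries, against 7% positive and 6.07% negative among all genes, and 0 within the 1 mg/kg libraries, against 0%. Scaling by library size alone left 1 member, Cox6a2, against 1.5% positive among all genes, and moved the median slope of all genes to −0.29 and that of members to 0.17. Adding reads outside genes to the model, chosen after seeing the data, also left 1 member, against 1.65% positive among all genes. With Ucp1 taken out of the model the count was 69, against 10.4% positive and 6.17% negative among all genes.

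Cox6a2 stood apart from the other members in this relation. It encodes the heart and skeletal muscle isoform of subunit 6A, and 10.3% of its exonic bases overlap another gene. Its lowest, median and highest levels were 38.3, 62.1 and 165 CPM at 5 mg/kg, and 23.0, 61.0 and 168.5 CPM at 1 mg/kg. The groups covered nearly the same range. Its slope on Ckm was 1.02 ± 0.10 (SE, edgeR adjusted p = 0.000163), so that it changed about in proportion to Ckm. Over the alternatives the slope lay between 0.95 and 1.31, and it missed the threshold only within the 1 mg/kg libraries (0.98, adjusted p = 0.12). Its slope on Ucp1 was 0.038 ± 0.030 (adjusted p = 0.563).

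The next members in order of Ckm slope were Atp5g1 and Ndufa5. Atp5g1 is 1 of 3 genes for the same c subunit of ATP synthase, which forms the rotating ring. Its slope was 0.60 ± 0.087 (adjusted p = 0.00197), and 11.1% of its 50-base stretches occurred in other genes. Ndufa5, an accessory subunit of the matrix arm of complex I, had a slope of 0.55 ± 0.092 (adjusted p = 0.00536). Both lost the call with library size alone, with reads outside genes in the model and within the 1 mg/kg libraries, and Atp5g1 also within the 5 mg/kg libraries (0.81, adjusted p = 0.0552). In the first 3 of these settings the slope of Atp5g1 was 0.48, 0.57 and 0.57, and that of Ndufa5 0.37, 0.42 and 0.49. At the other end, Cox4i2 had a slope of −0.059 ± 0.17 and Cox7a2l of −0.026 ± 0.075, and Cox6b2 had 0.093 ± 0.16. None of these passed, and their signs turned under some alternatives.

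**Figure D3:**
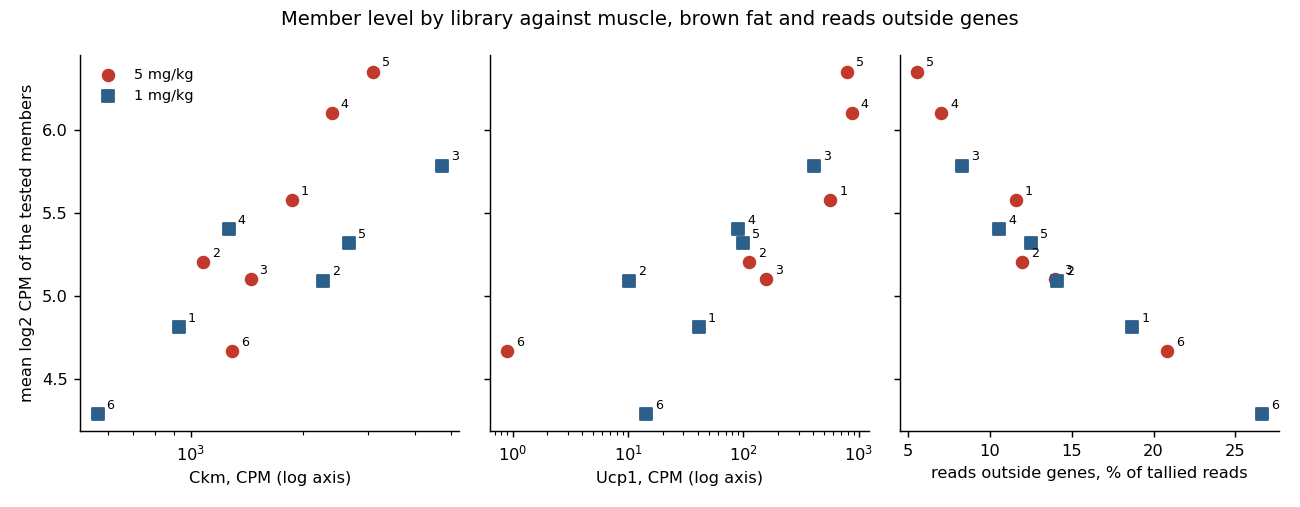
Mean log2 CPM of the 81 tested members (vertical axis) in each library against Ckm (left, CPM, log axis), Ucp1 (middle, CPM, log axis) and reads outside genes (right, % of tallied reads); circles are 5 mg/kg, squares 1 mg/kg, and numbers are replicates. The member mean is highest in replicate 5 at 5 mg/kg and lowest in replicate 6 at 1 mg/kg, and it is lower in libraries with more reads outside genes.

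The relation to Ucp1 was positive in nearly every member and passed the adjusted threshold in none. At equal Ckm and dose, 80 of 81 members had a positive slope, against 54.2% of all genes, with a median of 0.11 per doubling of Ucp1. By edgeR, 0 members passed after Benjamini-Hochberg adjustment, against 0.0322% of all genes. At an unadjusted p under 0.05 there were 70 members, against 13.2% of all genes. With adjustment, limma-voom called 0, and DESeq2 called 29, against 0.38% positive and 0.0933% negative among all genes of that fit. The DESeq2 fit held 48206 genes without a filter on low counts, whereas the edgeR shares are of 18645 genes. The largest slopes were those of Uqcrq (0.18 ± 0.044), a small subunit of complex III, of Cox6a1 (0.17 ± 0.045) and of Cox7b (0.17 ± 0.033), with adjusted p-values of 0.261, 0.262 and 0.254. The smallest were those of Ndufa4l2 (−0.035 ± 0.057), of Atp5s (0.0001 ± 0.036), a coupling factor of ATP synthase, and of Cox6c2 (0.029 ± 0.057). Cox6c2 is annotated as a processed pseudogene, had 6 to 18 reads per library and shares 52.7% of its 50-base stretches with another gene. With the levels of adipocyte and B cell markers added to the model, 67 members passed, against 2.63% positive and 1.37% negative among all genes.

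**Figure D4:**
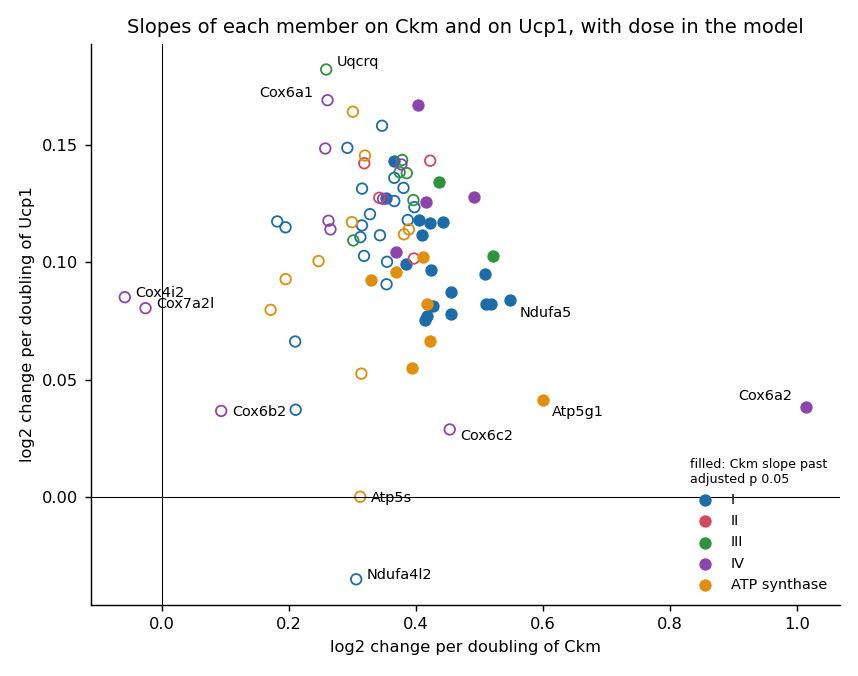
Slope of each tested member on Ckm (horizontal axis, log2 change per doubling of Ckm) and on Ucp1 (vertical axis, log2 change per doubling of Ucp1) from 1 edgeR model that also held dose; colours are complexes, and filled points passed an adjusted p of 0.05 for Ckm. Most members form 1 cloud around 0.37 and 0.11, and Cox6a2 lies far to the right at 1.02.

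Ckm, Ucp1 and reads outside genes were themselves related over the 12 libraries, which limits how far their slopes can be told apart. Between Ckm and Ucp1, Pearson's r was 0.516 (permutation p = 0.0873, adjusted over 3 relations 0.0873) and Spearman's rho 0.566 (permutation p = 0.0594, adjusted 0.0594). Without the 2 libraries farthest from the median of Ckm, r was 0.41 (permutation p = 0.246), and it was 0.633 within the 5 mg/kg group and 0.63 within the 1 mg/kg group (exact p = 0.163 and 0.167). Ckm was lower with more reads outside genes (r = −0.793, permutation p = 0.00186, adjusted 0.00413; rho = −0.671, adjusted permutation p = 0.0307). Without the 2 farthest libraries r was −0.645 (permutation p = 0.0455), and within the 5 and 1 mg/kg groups it was −0.769 and −0.856 (exact p = 0.0722 and 0.0278). Ucp1 and reads outside genes had an r of −0.788 (permutation p = 0.00275, adjusted 0.00413) and a rho of −0.853 (adjusted permutation p = 0.00246). Without the 2 farthest libraries r was −0.899 (permutation p = 0.0002), and within the 5 and 1 mg/kg groups it was −0.921 and −0.711 (exact p = 0.00833 and 0.108). In a model with reads outside genes and dose only, 77 of 81 members were lower with more such reads by edgeR with adjusted p under 0.05, against 15.3% of all genes lower and 11.7% higher. With Ckm and Ucp1 also in the model 0 members passed, against 0% of all genes. At an unadjusted p under 0.05 there were then 47 members, against 23.3% of all genes; 5 of 81 estimates were positive, against 49.8% of all genes, and the smallest adjusted p was 0.0725. The relations of the members to these 3 measures cannot be told apart in full with these libraries.

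Holding Ckm and Ucp1 equal, the dose estimates were smaller. By edgeR, 0 of 81 members passed for dose in this model, against 0% of all genes; at an unadjusted p under 0.05 there were 2 members, against 3.12% of all genes, and DESeq2 and limma-voom called 0. The median estimate was 0.22, with 79 members positive against 48.1% of all genes. Without replicate 6 at 5 mg/kg the median was 0.11, and without replicates 4 and 5 at 5 mg/kg it was 0.10.

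The non-member isoforms Cox7a1 and Cox8b, of muscle and brown fat, followed Ckm like the members at the top of the list. Cox7a1 had a Ckm slope of 0.81 ± 0.12 (edgeR adjusted p = 0.00182) and Cox8b of 0.68 ± 0.13 (adjusted p = 0.0124). Their Ucp1 slopes were 0.19 ± 0.037 and 0.21 ± 0.042, and neither passed (adjusted p = 0.254 for both). For dose, Cox7a1 was at 0.82 ± 0.59 and Cox8b at 0.93 ± 0.57, Ucp1 at 1.91 ± 1.15 and Ckm at −0.15 ± 0.48, none of which passed.

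Tissue isoforms were compared within each library as ratios of levels per kilobase. The ratio of Cox6a2 to Cox6a1 had a lowest value of 0.527, a median of 0.741 and a highest value of 1.03 at 5 mg/kg, and of 0.472, 1.10 and 1.998 at 1 mg/kg. The range at 5 mg/kg lay inside that at 1 mg/kg. The mean log2 ratio was lower at 5 mg/kg by an estimate of −0.42, and an exact two-sided permutation test gave p = 0.303, or 0.621 adjusted over 3 ratios. The smallest p this test can give is 0.00216.

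The other 2 ratios were low in every library. Cox4i2, the lung and hypoxia-responsive isoform of subunit 4, was at 0.00288, 0.00577 and 0.00772 of Cox4i1 at 5 mg/kg, and at 0.00363, 0.00591 and 0.00818 of it at 1 mg/kg (difference −0.16 in log2, exact permutation p = 0.610). Ndufa4l2, a hypoxia-induced relative of Ndufa4, was at 0.00505, 0.00726 and 0.0224 of Ndufa4 at 5 mg/kg, and at 0.00654, 0.00995 and 0.0130 of it at 1 mg/kg (difference −0.20, exact permutation p = 0.621). The groups overlapped in both ratios. For single genes, the dose estimates were 0.46 ± 0.30 for Cox4i1, 0.25 ± 0.26 for Cox4i2, 0.62 ± 0.38 for Ndufa4 and 0.24 ± 0.29 for Ndufa4l2, with adjusted p-values of 0.943.

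**Figure D5:**
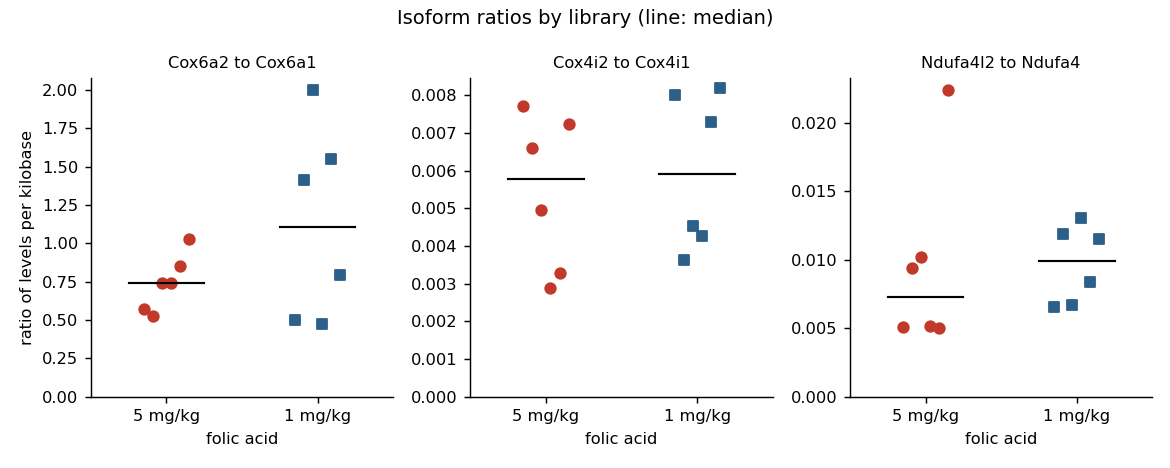
Ratio of levels per kilobase in each library for Cox6a2 to Cox6a1 (left), Cox4i2 to Cox4i1 (middle) and Ndufa4l2 to Ndufa4 (right), with 5 mg/kg as circles and 1 mg/kg as squares; lines are medians of 6 libraries. The groups overlap in all 3, and 1 library at 5 mg/kg lies above the rest in the Ndufa4l2 ratio.

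The ratios were then set against the 3 library measures, an analysis added after seeing the data, which gave 9 relations. The Ndufa4l2 to Ndufa4 ratio was lower in libraries with more Ucp1 (r = −0.879, permutation p = 0.00023, adjusted over 9 relations 0.00207; rho = −0.811, adjusted permutation p = 0.0209). It was r = −0.744 without the 2 farthest libraries (permutation p = 0.015), −0.966 within the 5 mg/kg group (exact p = 0.0139) and −0.551 within the 1 mg/kg group (exact p = 0.233). In this relation Ndufa4 had a positive Ucp1 slope (0.16 ± 0.041, adjusted p = 0.261) and Ndufa4l2 one near 0. The Cox4i2 to Cox4i1 ratio was higher with more reads outside genes (r = 0.706, permutation p = 0.00927, adjusted 0.0417; rho = 0.699, adjusted permutation p = 0.0625). It was r = 0.662 without the 2 farthest libraries (permutation p = 0.0353), 0.747 within the 5 mg/kg group and 0.675 within the 1 mg/kg group (exact p = 0.0972 and 0.144). Cox4i1 followed the members' mean closely, at an SD of 0.10 relative to it, and that mean was lower with more such reads. Cox4i2 had 28 to 75 reads per library. The part of each gene in this relation was not tested. The Cox6a2 to Cox6a1 ratio had r = 0.647 with Ckm (permutation p = 0.0235, adjusted 0.0704; rho = 0.65, adjusted permutation p = 0.0784). It was r = 0.646 without the 2 farthest libraries (permutation p = 0.0479), 0.263 within the 5 mg/kg group and 0.797 within the 1 mg/kg group (exact p = 0.594 and 0.0778), and 0.479 without replicate 3 at 1 mg/kg (permutation p = 0.139). The adjusted p of the other 6 relations was 0.0831 or more for r.

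Cox7a2l and the c subunit genes completed the isoform sets. Cox7a2l encodes a factor known for joining complexes III and IV into supercomplexes, though which form of it these mice carry was not examined. It lay at 43.7, 74.7 and 77.2 CPM at 5 mg/kg (lowest, median and highest), and at 58.4, 69.4 and 85.6 CPM at 1 mg/kg. It varied least of all members between its highest and lowest library, 1.96 times, and was the 1 member with a negative dose estimate (−0.016 ± 0.15); 13.8% of its 50-base stretches occurred in another gene. Cox7a2, the general isoform of subunit 7A, had a dose estimate of 0.66 ± 0.35. Atp5g1, Atp5g2 and Atp5g3 had means of 75.7, 33.3 and 61.7 CPM per kilobase and dose estimates of 0.19 ± 0.34, 0.18 ± 0.19 and 0.36 ± 0.25; 38.3% of the 50-base stretches of Atp5g2 occurred in other genes. Of the pairs not yet named, Cox7b2 was at a mean of 0.00341 CPM and Cox8c at 0.00685 CPM, whereas Cox7b was at 93.2 and Cox8a at 70.0 CPM.

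Other genes of the pathway, taken from 10 lists, also followed Ckm in part. For dose 0 genes passed in any list, against 0% of all genes. Over all genes tested, 47.1% had a positive dose estimate. For Ckm, 5.5% of all genes passed with a positive slope and 1.07% with a negative one. The members' own Ckm count ran from 0 to 69 over the alternative settings, and such settings are not given for these lists. Of the assembly factors of the 5 complexes, 49 of 50 tested had a positive dose estimate, and 7 of 50 passed for Ckm, all with positive slopes. They were Ecsit (0.42 ± 0.072, adjusted p = 0.0062), Ndufaf6 (0.40), Ndufaf1 and Ndufaf5 of complex I, Uqcc2 of complex III (0.37, adjusted p = 0.0305), and Coa7 (0.30, adjusted p = 0.0155) and Taco1 (0.38, adjusted p = 0.0403) of complex IV. Among electron carriers and ubiquinone synthesis, 6 of 17 passed for Ckm, led by Coq10a (0.69 ± 0.10, adjusted p = 0.00263) and cytochrome c itself, Cycs (0.52 ± 0.098, adjusted p = 0.0105). The smallest dose p among them belonged to Coq6 (log2 fold change 0.70 ± 0.30) and Coq4 (0.46 ± 0.23). In the tricarboxylic acid cycle, which supplies NADH and succinate, 7 of 16 passed for Ckm, led by Idh3b (0.47 ± 0.091, adjusted p = 0.0114) and Sucla2 (0.55 ± 0.11, adjusted p = 0.0147), and the median dose estimate was 0.56.

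Carriers and porins of the mitochondrial membranes included 4 of 6 that passed for Ckm, namely Slc25a4, the ADP and ATP exchanger of muscle and heart (0.81 ± 0.10, adjusted p = 0.000781), Vdac1 (0.66 ± 0.092, adjusted p = 0.00166), Vdac2 and Vdac3. Of the 13 mitochondrially encoded subunits listed, 8 were tested. Their mean levels ran from 0.54 CPM for mt-Nd3 to 21450 CPM for mt-Co1, and the reason for this spread was not tested. Of the 8, mt-Nd2 passed for Ckm (0.56 ± 0.14, adjusted p = 0.0445), and all 8 had positive dose estimates, with a median of 0.33. Regulators of mitochondrial biogenesis did not share 1 sign, with 9 of 15 dose estimates positive and a median of 0.054. For Ckm, Ppargc1a, the coactivator PGC-1 alpha, passed with a positive slope (0.79 ± 0.13, adjusted p = 0.00554), as did the muscle regulator Perm1 (0.74 ± 0.19, adjusted p = 0.0443). Gabpb1, a subunit of the factor GABP, passed with a negative one (−0.39 ± 0.10, adjusted p = 0.0489). The smallest dose p-values in this list were those of Esrra, an oestrogen-related receptor (0.52 ± 0.26), and Ppargc1b (0.46 ± 0.24), and neither passed.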

How the data were processed

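RNA was extracted with a mirVana kit and libraries were made with TruSeq RNA Sample Prep Kit v2, per the labels' protocols. The files the authors deposited hold raw counts of reads for each gene. Alignment was to mm10 with STAR and counting with HTSeq 0.6.1, per the submitters' processing notes. The STAR version, annotation and strand setting count as not given in the sources used here. Without strand, reads of overlapping antisense genes cannot be told apart. Lines that tally reads without a gene, 16.7% to 35.7% of tallied reads, stayed out of library sizes and tests; multiply aligned reads are among them, so genes with copies lose reads. The labels give no batch.

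The deposited counts were tested with edgeR 4.0.16 in R 4.3.3 (filterByExpr, TMM, robust quasi-likelihood F-test) on all 12 libraries, without covariates or with log2 CPM of Ckm and Ucp1. Standard errors come from the estimate and its F statistic. CPM uses TMM factors, and levels per kilobase divide by the shortest principal transcript of GENCODE vM21 (GRCm38). Correlations used log2 CPM, log2 ratios and the plain percentage of reads outside genes. Their p-values came from 100000 permutations, or from all orderings within a dose group (exact p). The fits were tested on simulated data. Among 30 pairs of libraries within groups, the lowest chi-square of counts was 41.7 per degree of freedom, far above the sampling noise that copies would show.

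Members, lists and tests were chosen with earlier results of these data known. Members were named by level, dose p, slope or isoform set. Alternatives were DESeq2 1.42.0, limma-voom 3.58.1, other scalings, filters and covariates, and leaving out libraries.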

Additional observations from a re-analysis of the deposited data

Results flagged for a closer look

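Among 88 groups of 6 libraries examined by Dixon's gap rule, which flags about 1 group in 20 by chance, 2 held a library far from the others. Cox7a2l was lowest in replicate 6 at 5 mg/kg, at 43.7 CPM, where the next lowest library of that group was at 70.1 CPM. The Ndufa4l2 to Ndufa4 ratio was highest in the same library, at 0.0224, where the next highest of the group was at 0.0102. That library also had the lowest Ucp1 level of all, 0.902 CPM, and 20.8% of its reads outside genes; the part of these in both values was not tested.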

How the results depend on the processing

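The count of 0 members called for dose, and for dose at equal Ckm and Ucp1, held under every alternative run. Library size alone moved the median dose estimate of all genes to −0.16 and that of members to 0.23. The count for Ckm was 39 with RLE size factors, 33 without a filter, 36 with limma-voom and 25 without replicates 4 and 5 at 5 mg/kg; it moved to 1 with library size alone or with reads outside genes added, 58 with DESeq2, 12 with marker lists in place of Ckm and Ucp1, 69 with Ckm and dose only, and 0 within 1 mg/kg, and leaving out 1 library gave 3 to 67. The count for Ucp1 moved to 29 with DESeq2, 2 with marker lists and 67 with adipocyte and B cell levels added. The count for reads outside genes moved to 6 without a filter, 13 with DESeq2 and 77 with dose only, and to 0 to 13 on leaving out 1 library. The correlation of Ckm with Ucp1 was 0.579 with marker lists (permutation p = 0.0487) and 0.454 to 0.609 on leaving out 1 library. The share called among all genes also moved with the setting. For a positive Ckm slope it was 0% within 1 mg/kg and 13.3% without replicate 4 at 1 mg/kg. Where no such share is given here or above, a member count cannot be read as particular to the members. The cause of these shifts was not tested.

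Values that did not pass the test turned sign as follows. Without replicates 4 and 5 at 5 mg/kg the isoform differences were 0.20 for Cox4i2 and 0.13 for Ndufa4l2, and the dose estimates −0.25 for Atp5g1, −0.001 for Atp5g3 and −0.51 for Cox6a2. With reads outside genes in the model the dose estimates were −0.09 for Atp5g1, −0.018 for Atp5g2 and −0.23 for Cox6a2, and the slopes on Ckm 0.021 for Cox4i2, −0.14 for Cox6a1, −0.069 for Cox6b2 and 0.047 for Cox7a2l, and on Ucp1 −0.069 for Atp5s and −0.047 for Cox6c2. With library size alone they were −0.068 for the dose estimate of Cox6a2, −0.20 for the Ckm slope of Cox6b2, and −0.043 and −0.003 for the Ucp1 slopes of Atp5s and Cox6c2. With adipocyte and B cell levels added, the Ckm slopes were 0.12 for Cox4i2, −0.16 for Cox6b2 and 0.076 for Cox7a2l, and with Ckm and dose only 0.09 for Cox4i2 and 0.11 for Cox7a2l. The Ckm slope of Cox7a2l was 0.001 with RLE size factors, 0.006 with DESeq2, 0.008 without replicates 4 and 5 at 5 mg/kg and 0.047 within 1 mg/kg. The Ucp1 slope of Atp5s was −0.002 with RLE and limma-voom, −0.007 without a filter, −0.001 with DESeq2, −0.027 without replicates 4 and 5 at 5 mg/kg, −0.019 within 5 mg/kg and −0.049 within 1 mg/kg. That of Ndufa4l2 was 0.006 with Ucp1 and dose only and 0.072 within 1 mg/kg. Leaving out 1 library at a time gave dose estimates of −0.022 to 0.42 for Atp5g1, −0.25 to 0.51 for Cox6a2 and −0.061 to 0.088 for Cox7a2l, Ckm slopes of −0.059 to 0.029 for Cox7a2l, −0.21 to 0.049 for Cox4i2 and −0.003 to 0.16 for Cox6b2, Ucp1 slopes of −0.016 to 0.014 for Atp5s and −0.075 to 0.065 for Ndufa4l2, a Cox4i2 difference of −0.29 to 0.003, and correlations of −0.17 to 0.076 between the Cox6a2 ratio and reads outside genes.

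No paired analysis was possible because the labels carry no replicate numbers, and the numbers used here only name samples. With 6 libraries per group, the unadjusted 95% interval of a dose difference had a median half-width of 0.72 on the log2 scale over members, and intervals cover the spread between libraries only.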
